A study of Mus musculus with 2 samples.

Results

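The oligoadenylate synthetase (OAS) genes described here are Oas1b, Oas1c, Oas1g, Oas2, Oas3, Oasl1 and Oasl2 of the mouse. They were set as a list of names with earlier results of these data known, and 4 other measured OAS genes are not among them. Each was read from the probe set whose platform annotation gives that gene's symbol and no other. This gave 7 probe sets for 7 genes, out of 41345 probe sets and 22180 named genes on the array. RNA came from bone marrow-derived dendritic cells, called GMDC in the labels, in 2 cultures: one grown with medium conditioned by topotecan-treated E0771 cells, and a control. E0771 is a mouse mammary tumour line and topotecan an inhibitor of topoisomerase I. Each culture was measured on 1 array, so no value has a replicate error, no test of a difference was possible, and every comparison below is between these 2 arrays. The labels do not give the mouse strain, age, number of animals, exposure time or dose. The control's medium is not described either, so whether topotecan or the tumour cells' medium alone went with a difference cannot be told apart.

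Those OAS proteins that are active enzymes bind double-stranded RNA and then join ATP into short chains with an unusual 2′,5′ linkage. Not every OAS gene encodes such an enzyme, and a transcript level is not a measure of this activity. The 2′,5′-linked chains are a messenger that leads to the cleavage of viral and cellular RNA and so blocks protein synthesis. OAS genes are classical targets of type I interferon and form part of the antiviral programme of dendritic cells and other cells. The mouse has many OAS1 genes, single genes for Oas2 and Oas3, whose proteins hold several OAS units in tandem, and OAS-like genes, whose proteins end in ubiquitin-like domains.

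Promoters of the OAS genes are shown first, because the members are known for their response to interferon and differed widely in how far apart the arrays were. RefSeq windows (GRCm38.p6) from 250 bases before to 50 bases after the annotated start were given for 5 of the 7 genes. They were searched on both strands for GAAANNGAAA, the core of the interferon-stimulated response element, bound by interferon regulatory factors. The core was present in Oas1g, Oas3 and Oas1c, and 3.44% of all 32851 promoter windows of this length hold it. Oas1g and Oas1c each held 2 overlapping copies, and 0.225% of all windows held 2 or more. The following 4 windows show the range: Oas1g and Oas3 with the core and a larger and a smaller difference between the arrays, Oas1c with the core and the smallest difference, and Oasl1 with the largest difference and no match. Each reads 5′ to 3′ along the gene, with the core (or its complement) in capitals. The core in the Oas1c window also lies close to Oas1b, as described below the windows.

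Oas1g, chr5:120887564-120887863, minus strand: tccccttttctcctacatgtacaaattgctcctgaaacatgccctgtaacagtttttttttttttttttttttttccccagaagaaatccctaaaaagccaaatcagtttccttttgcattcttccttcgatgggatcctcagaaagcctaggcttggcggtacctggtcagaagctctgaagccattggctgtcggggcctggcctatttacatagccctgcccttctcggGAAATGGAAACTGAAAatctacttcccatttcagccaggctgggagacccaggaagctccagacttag

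Oas3, chr5:120777610-120777909, minus strand: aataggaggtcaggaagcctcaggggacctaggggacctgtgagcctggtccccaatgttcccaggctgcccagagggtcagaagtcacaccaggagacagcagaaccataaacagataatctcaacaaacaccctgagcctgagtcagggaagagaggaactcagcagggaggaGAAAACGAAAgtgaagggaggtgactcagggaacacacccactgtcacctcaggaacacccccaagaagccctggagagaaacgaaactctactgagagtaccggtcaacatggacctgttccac

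Oas1c, chr5:120812465-120812764, minus strand: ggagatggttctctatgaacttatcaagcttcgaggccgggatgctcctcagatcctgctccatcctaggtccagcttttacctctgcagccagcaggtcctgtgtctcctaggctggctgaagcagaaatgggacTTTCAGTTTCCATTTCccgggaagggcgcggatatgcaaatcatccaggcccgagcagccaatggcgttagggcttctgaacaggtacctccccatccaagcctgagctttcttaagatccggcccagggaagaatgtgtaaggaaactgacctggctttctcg

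Oasl1, chr5:114922990-114923289, plus strand: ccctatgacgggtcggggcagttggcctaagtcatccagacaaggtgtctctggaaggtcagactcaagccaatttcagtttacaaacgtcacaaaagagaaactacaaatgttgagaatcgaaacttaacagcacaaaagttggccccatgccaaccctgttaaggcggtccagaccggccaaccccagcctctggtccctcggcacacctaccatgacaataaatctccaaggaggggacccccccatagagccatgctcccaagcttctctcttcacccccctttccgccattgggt

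In Oas1g the copies lay at bases -18 to -9 and -12 to -3 from the start, and in Oas3 the single copy lay at -75 to -66. In Oas1c they read on the opposite strand, at -114 to -105 and -108 to -99. The Oas1c window also covers 130 bases of the annotated span of Oas1b, the next gene on the chromosome, so its letters are not those of Oas1c alone. These are the 130 bases furthest from the Oas1c start. Both copies lie outside them, between the Oas1c start and the Oas1b span and nearer to the latter. They can thus not be assigned to Oas1c rather than Oas1b from the letters, and which gene they act on was not tested. Oasl2 was searched as well and held no core. No member held TTCNNNGAA, the core of the gamma-activated site bound by STAT dimers, which 8.30% of all windows hold. TATAAA was found in Oasl2 alone among the 5, against 13.6% of all windows. These are exact matches of letters in a short window and not measured binding sites. The absence of a match says nothing of elements elsewhere or of near matches inside the window. The Oasl1 window, for example, holds tttcagttta, a single letter off the complement of the core. How many of all windows hold such near matches was not counted.

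All 7 OAS genes had a higher value on the conditioned-medium array, with log2 differences from 0.45 to 3.78 and a median of 2.29. Oasl1, Oas1b, Oas1g, Oasl2 and Oas2 were at least 2-fold higher, Oas3 and Oas1c lay between, and 0 were 2-fold lower. Among 13712 genes with at least 1 value at or above 4.10 on the log2 scale, the median of all probe set values, 8.63% were at least 2-fold higher, 6.84% were at least 2-fold lower and 44.2% lay above 0, and the median log2 difference of these genes was -0.07. These 7 are also the only measured OAS genes that reached 4.10 on either array. Counted over all 11 measured OAS genes without that filter, 5 were at least 2-fold higher, 9 lay above 0 and the median log2 difference was 0.71. Over all 22180 genes, 5.79% were at least 2-fold higher and the median was -0.04, and the share above 0 was not counted. The median of 0.71 is the value of Oas1d, 1 of the 4 genes under 4.10 on both arrays, so it rests on faint signal.

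**Figure D1:**
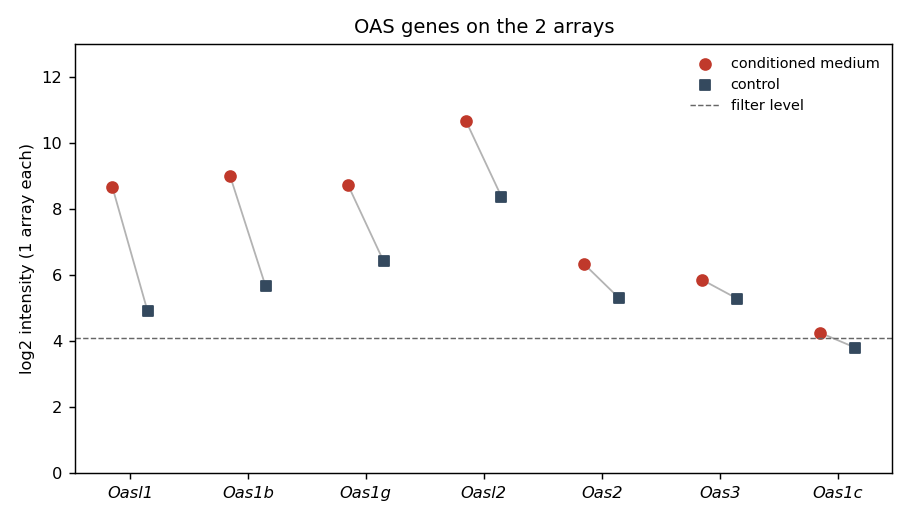
Log2 intensity (vertical axis) of the 7 OAS genes on the conditioned-medium array (circles, left of each pair) and on the control array (squares), 1 array each, ordered by the size of the difference; the dashed line is the filter level of 4.10. Oasl1 is widest apart (8.68 with conditioned medium, 4.89 in the control), and Oas1c (4.25 with conditioned medium, 3.80 in the control) straddles the dashed line.

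Among the OAS-like genes, Oasl1 had the largest difference of the 7. In the mouse its protein lacks synthetase activity and is known to hold back translation of Irf7, a regulator of interferon production. Oasl1 (probe set 17441051) had a log2 intensity of 8.68 with conditioned medium and 4.89 in the control, a 13.8-fold difference that ranked 74 from the top among the 13712 genes. Its control value lay only 0.80 above the filter level, so part of the control signal may be background and the fold is uncertain.

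Oasl2, which in the mouse encodes an OAS-like protein with synthetase activity, lies next to Oasl1 on chromosome 5. Its probe set (17441037) read 10.66 with conditioned medium and 8.37 in the control, which is 4.87-fold higher at rank 278. Both of its values stood well above the filter level, by 6.56 with conditioned medium and 4.27 in the control, so this difference does not rest on faint signal.

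In the OAS1 group, Oas1b was the widest apart. Oas1b is the mouse gene of resistance to flaviviruses, and many laboratory strains carry a truncated form of it; in the RefSeq table, which follows C57BL/6J, it is listed as a transcribed pseudogene. Its log2 intensity (probe set 17441759) was 8.99 with conditioned medium and 5.66 in the control, 10.1-fold higher at rank 116. The value reports transcript and not protein, and the strain of these cells is not given.

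Oas1g, a mouse OAS1 gene whose product makes 2′,5′-linked chains, had a log2 intensity (probe set 17452115) of 8.72 with conditioned medium and 6.42 in the control. It was 4.92-fold higher, at rank 274. The differences of Oas1g and Oasl2 (2.30 and 2.29) were 0.01 apart. Oas1g has a close relative in Oas1a: their promoter windows were identical at 261 of 306 aligned positions (85.3%), both with the overlapping cores. OAS1 transcripts are similar in sequence as well, so probe sets of this group could share signal.

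Oas1c was the faintest of the 7 and had the smallest difference. Its probe set (17452097) read 4.25 with conditioned medium and 3.80 in the control, 1.37-fold higher at rank 2836. It passed the filter through the conditioned-medium array alone, by 0.15, and with the control value raised to the filter level the ratio was 1.11. Oas1c thus showed no clear difference above the filter level on these arrays, and background itself was not measured.

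The genes of the larger synthetases were less far apart. Oas2 (probe set 17452054) had a log2 intensity of 6.33 with conditioned medium and 5.29 in the control, 2.06-fold higher at rank 1125 and only just past 2-fold. Oas3, whose product is the OAS protein that binds long double-stranded RNA, had 5.86 with conditioned medium and 5.28 in the control (probe set 17452070). It was 1.49-fold higher at rank 2307, on the other side of the 2-fold size. The difference between Oas2 and Oas3 (0.47 on the log2 scale) is close to the technical spread given next and does not separate them.

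**Figure D2:**
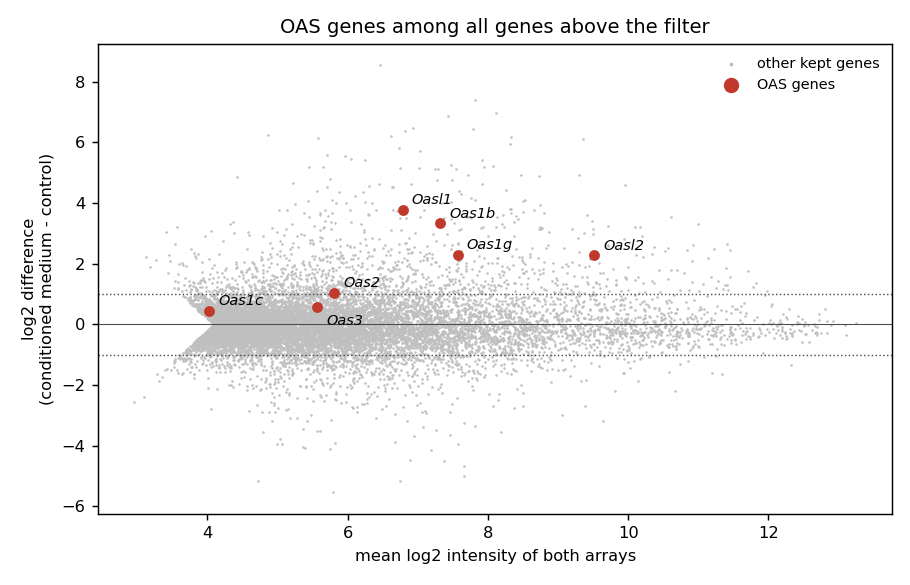
Log2 difference, conditioned medium minus control (vertical axis), against the mean log2 intensity of both arrays (horizontal axis) for the 13712 genes above the filter (grey) with the 7 OAS genes in red; dotted lines mark 2-fold. Oasl1, Oas1b, Oas1g and Oasl2 lie well above the upper dotted line, Oas2 on it, and Oas3 and Oas1c under it.

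Each OAS gene had a single probe set, so their own technical error could not be measured. In the 652 genes with several probe sets above the filter, the log2 differences of probe sets of one gene had a pooled SD of 0.46 (787 degrees of freedom). Oasl1, Oas1b, Oas1g and Oasl2 differed by 8.25, 7.27, 5.02 and 4.99 of these SDs, in this order, and Oas2 by 2.28. Oas3 (1.26 SDs) and Oas1c (0.99 SDs) lay near that spread. The gap between Oasl1 and Oas1b was 0.45, under 1 SD, so their order is not settled. This SD holds nothing of the spread between cultures, animals or RNA preparations.

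Oas1d, Oas1e, Oas1f and Oas1h gave no signal above the filter level on either array. Oas1d read 2.57 with conditioned medium and 1.86 in the control, and Oas1f read 3.12 with conditioned medium and 2.69 in the control. Oas1e read 3.76 with conditioned medium and 3.80 in the control, and Oas1h read 1.78 with conditioned medium and 2.36 in the control. Oas1d is known as an oocyte gene in the mouse. None of these pairs was read as a difference, since all values lie under the filter level and background itself was not measured. Oas1a was not analysed as a gene because its only probe set is annotated to another OAS gene too. It is thus not counted among the faint genes. A probe set annotated to 2 OAS genes, described further below, read 7.47 with conditioned medium and 5.27 in the control.

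On chromosome 5 the 12 OAS genes of the RefSeq table form a pair (Oasl2, Oasl1) and a separate cluster from Oas2 to Oas1d. Of the 16 protein-coding genes that are the 4 nearest on each side, 14 were measured and 11 reached the filter level. Of these 11, 0 were at least 2-fold higher (8.63% of all genes were), and 1 was at least 2-fold lower, 2610524H06Rik, with a log2 intensity of 7.70 with conditioned medium and 8.98 in the control. Their differences ran in both directions, with a median size of 0.34 on the log2 scale, against 2.29 for the 7 OAS genes and 0.41 for all genes above the filter. The ranges overlap: 2610524H06Rik (-1.28) was further apart than Oas2, and Ptpn11, the gene of the phosphatase SHP2 (0.84), further than Oas3 and Oas1c. Inside the cluster, Oas1c and Oas1b are direct neighbours with log2 differences of 0.45 and 3.33.

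**Figure D3:**
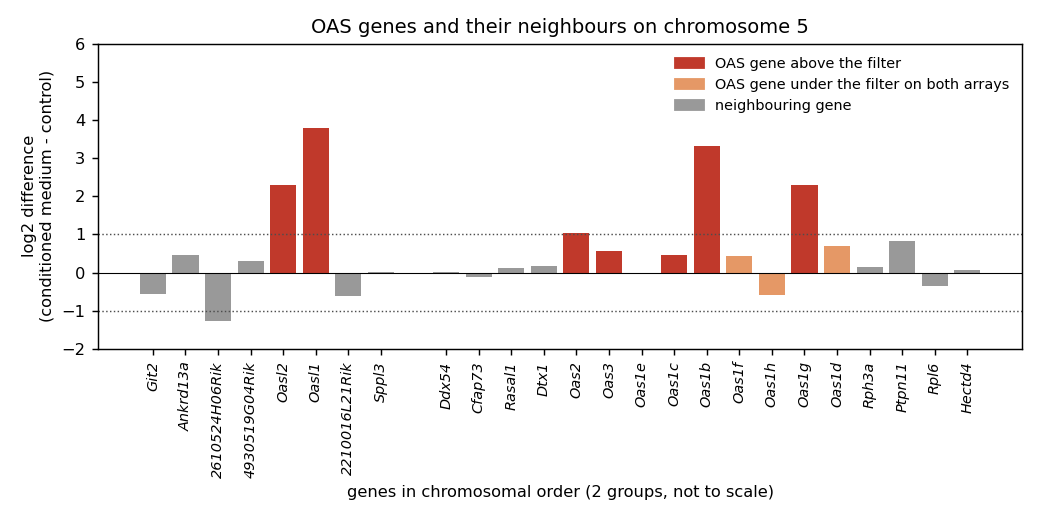
Log2 difference, conditioned medium minus control (vertical axis), of the measured OAS genes and their 4 nearest protein-coding neighbours on each side, in chromosomal order and not to scale; the empty space separates the Oasl pair from the Oas cluster, and dotted lines mark 2-fold. The 4 tallest bars are Oasl1, Oas1b, Oas1g and Oasl2; among the neighbours, Ptpn11 is highest at 0.84 and 2610524H06Rik lowest at -1.28.

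Genes tied to the steps after the OAS enzymes differed by less than 2-fold between the 2 arrays, as most genes did. Of 3 such genes measured, 0 were at least 2-fold apart and the median log2 difference was -0.02. Among the 13712 genes above the filter, 11590 also stayed under 2-fold in size. A count of 0 among 3 thus does not set these genes apart. Abce1, known for its role in ribosome recycling, had a log2 intensity of 5.87 with conditioned medium and 6.32 in the control. Its log2 difference of -0.44 was close in size to 0.41, the median size over all genes above the filter. Pde12, whose product degrades the 2′,5′-linked chains, read 4.95 with conditioned medium and 4.70 in the control. Akap7, whose product has the same activity in the mouse, read 5.51 with conditioned medium and 5.53 in the control.

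Sensors and effectors of double-stranded RNA, which answer to the same kind of RNA as the OAS proteins, were divided. Of 12 measured genes, 6 passed 2-fold upward, 6 stayed under it in size and 0 passed it downward. Of all genes above the filter, 8.63% passed it upward. The median log2 difference of the 12 was 1.002, against 2.29 for the OAS genes. Eif2ak2, the gene of the kinase PKR that stops translation on binding such RNA, had 7.84 with conditioned medium and 6.00 in the control (3.58-fold). The cytosolic sensors Ddx58 (RIG-I), Ifih1 (MDA5) and Dhx58 (LGP2) were 3.72, 2.27 and 4.75-fold higher, in this order. Tlr3, the endosomal receptor, read 6.39 with conditioned medium and 3.75 in the control, where it lay under the filter level. Zbp1, a sensor of Z-form nucleic acids, was 5.03-fold higher. Adar, the RNA-editing enzyme that limits sensing of the cell's own RNA, was 1.77-fold higher. Mavs, the adaptor of the cytosolic sensors, held the identical value of 4.90 on both arrays. Identical values on both arrays occurred in 1722 of all 41345 probe sets, so this is not particular to Mavs. The RNA-binding and processing genes Dhx9, Prkra, Tarbp2 and Dicer1 had log2 differences between -0.73 and -0.27.

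Interferon and its signalling genes stood beside the OAS genes as follows. Of 13 measured genes, 8 passed 2-fold upward, 5 stayed under it in size and 0 passed it downward. Of all genes above the filter, 8.63% passed it upward. The median log2 difference of the 13 was 1.41. Ifnb1, the gene of interferon beta, had a log2 intensity of 10.73 with conditioned medium and 2.19 in the control. The Ifnb1 control value lay under the filter level. With that value raised to the level, the log2 difference was 6.63 in place of 8.54. The interferon alpha gene Ifna4 had 5.35 with conditioned medium and 5.46 in the control. The receptor genes Ifnar1 and Ifnar2 were 1.92 and 2.15-fold higher, and the kinase genes Jak1 and Tyk2 1.28 and 1.59-fold higher. Of ISGF3, the complex that drives OAS transcription, Stat2 was 4.54-fold and Irf9 2.65-fold higher. Irf7, whose translation Oasl1 restrains in the mouse, read 11.19 with conditioned medium and 7.78 in the control, 10.7-fold higher on the array where Oasl1 was 13.8-fold higher. Irf3 was 1.19-fold higher. The feedback inhibitors Socs1 and Usp18 were 16.4 and 4.82-fold higher. Cgas, whose enzyme shares the nucleotidyltransferase fold of OAS proteins but senses DNA, was 2.03-fold higher, and Sting1, its downstream adaptor, 1.98-fold.

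**Figure D4:**
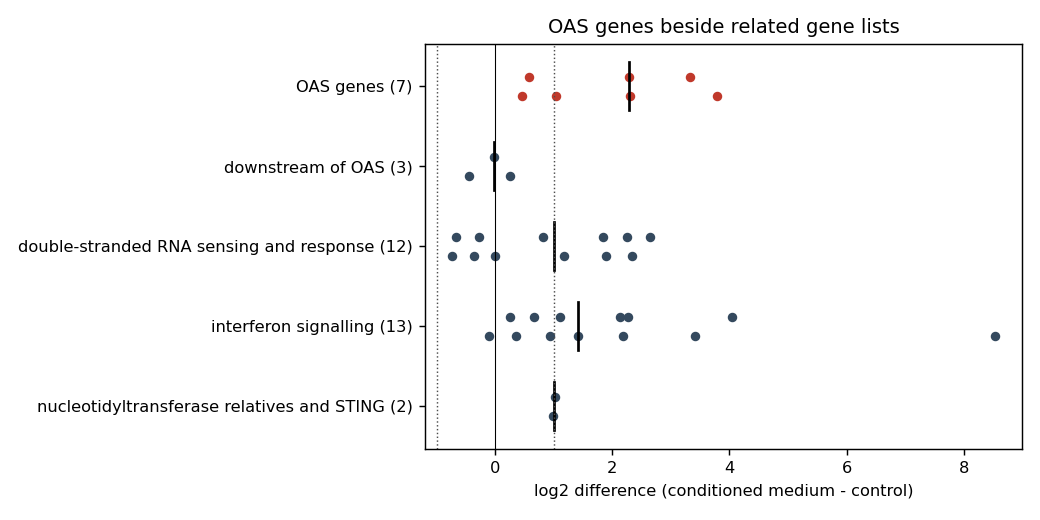
Log2 difference, conditioned medium minus control (horizontal axis), of each gene above the filter in 5 lists (rows, number of genes in brackets); black bars are medians and dotted lines mark 2-fold. The 7 OAS genes, with a median of 2.29, all lie right of 0, whereas the 3 genes downstream of OAS lie around it, with a median of -0.02.

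The genes closest to Oasl1 in both values, among 13711 others, were Cish, a gene of the SOCS family (8.57 with conditioned medium and 4.85 in the control), Rilpl1 (8.51 with conditioned medium and 4.997 in the control) and Apod, the gene of apolipoprotein D (8.53 with conditioned medium and 4.77 in the control). The measure was the distance over 2 log2 values, from 2 arrays only, and probe sets of different genes do not share a scale of abundance.

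Cell-type markers differed between the arrays as well. Of all genes above the filter, 6.84% were at least 2-fold lower and 8.63% at least 2-fold higher. Of 7 neutrophil markers, 6 were at least 2-fold lower with conditioned medium, and their summed linear intensity was 1719 with conditioned medium and 6187 in the control, with Camp, Elane and Mpo under the filter level on the conditioned-medium array. Of 8 dendritic cell markers above the filter, 4 were at least 2-fold lower (Itgax, Flt3, Batf3 and Clec10a) and 2 higher (H2-Ab1 and Dpp4), with a median log2 difference of -0.60. Flt3 was under the filter level with conditioned medium, and with that value raised to the level it was 1.22-fold lower. The sum over the 9 measured was 2949 with conditioned medium and 1901 in the control, most of it H2-Ab1, and without that gene it was 419 with conditioned medium and 757 in the control. Itgax, the gene of CD11c, read 7.15 with conditioned medium and 8.18 in the control, and Zbtb46 lay under the filter level on both arrays. Of 7 macrophage and monocyte markers, Csf1r, Ccr2 and Adgre1 were at least 2-fold lower and Ly6c2 higher, and 5 of the 7 lay below 0. Their sum was 10280 with conditioned medium and 8722 in the control, and without Ly6c2 it was 6335 with conditioned medium and 6982 in the control. Of 4 plasmacytoid markers, Bst2, itself interferon-inducible, was 2.59-fold higher, and Siglech read 4.74 with conditioned medium and 5.55 in the control. Their sum was 6002 with conditioned medium and 2406 in the control, and without Bst2 it was 158 with conditioned medium and 152 in the control. Of 5 measured B, T and NK cell markers, 4 lay under the filter level on both arrays (sums 77.4 with conditioned medium, 77.7 in the control). Of 5 mammary epithelial markers, Krt18, Krt14 and Epcam lay under it on both, Krt8 read 4.77 with conditioned medium and 4.96 in the control, and Cdh1 was 13.8-fold higher. Their sum was 1240 with conditioned medium and 151 in the control, and without Cdh1 it was 57.7 with conditioned medium and 65.1 in the control. The part of cell composition in the OAS differences was not tested, and in bulk RNA a larger share of expressing cells and more RNA per cell cannot be told apart.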

How the data were processed

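RNA of 2 cultures of mouse bone marrow-derived dendritic cells was measured on 1 Affymetrix array each. Per the labels' protocols, total RNA was extracted with Trizol and labelled with biotin. Affymetrix Expression Console is the software in the submitters' processing notes; its version, algorithm and genome build are not stated there. The authors deposited 1 value per probe set and array, taken as log2 intensity from its range (0.02 to 13.50 with conditioned medium, -0.26 to 13.42 in the control, medians 4.09 and 4.10). The log base is inferred, and near-equal distributions would hide a shift of all genes.

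Symbols came from the platform annotation. A gene took its probe set with the highest mean and was kept when its higher value reached 4.10, which left 13712 of 22180 genes (61.8%). A log2 difference is conditioned medium minus control, and 2-fold is a fixed size, not a test. Signal and precision are limited by the number of arrays (1 per group).

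The members and lists were chosen with earlier results of these data known. All listed genes could be named, with the 4 nearest neighbours on each side and the 3 genes closest to the member of largest difference. Genes left out of marker sums were chosen after their values were seen. Protein sequences were not used here. Alternatives were quantile normalization, lowess (fraction 0.3, 3 iterations), centring on kept genes, the mean of probe sets, no filter, a 75th percentile filter, low values set to the filter level, and 1.5-fold and 3-fold sizes. The counting code was run on simulated shifts well past 2-fold with little noise, which says nothing of members near 2-fold. Python 3.11.15, numpy 2.4.6, pandas 2.3.3, statsmodels 0.14.6 and matplotlib 3.10.9 were used.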

Additional observations from a re-analysis of the deposited data

Results flagged for a closer look

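Signal lay in probe set 17452126, which entered no gene value because its annotation gives 2 OAS gene symbols. It read 7.47 with conditioned medium and 5.27 in the control, a log2 difference of 2.20 (4.61-fold higher). This stands next to the 2.30 of the Oas1g probe set, but the symbols leave unsettled which gene it measures. With 1 array per culture the difference was not tested.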

How the results depend on the processing

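The count of OAS genes at least 2-fold higher was 5 in all 7 alternatives that kept this size, while the share of all kept genes beside it ran from 5.79% (no filter) to 13.6% (75th percentile filter). It was also 5 at 1.5-fold, where Oas3 missed by a small margin, and 4 at 3-fold, where Oas2 dropped out. The share of all kept genes was 16.6% at 1.5-fold and 4.14% at 3-fold. The median log2 difference of the members ranged from 2.27 to 2.41 over 7 alternatives. Of 48 single member values under these alternatives, 26 equalled the reported ones by construction, since each gene has 1 probe set, a filter alters no value, and only Oas1c has a value under the filter level. The other 22 were above 0 and moved by at most 0.30, less than the SD of 0.46 between probe sets. The 75th percentile filter (5.48) gave no value for Oas1c, which was under it on both arrays. Oas1c with low values at the filter level had a log2 difference of 0.15 in place of 0.45. Of 15 genes downstream of OAS or of double-stranded RNA sensing above the filter, 6 were at least 2-fold apart, all of them higher, and the count was 6 in each of the 7 alternatives that kept this size (of 19 genes with no filter, which adds the 4 faint OAS1 genes, and of 12 with the 75th percentile filter). At 1.5-fold the count was 9 (7 higher, 2 lower), and at 3-fold it was 5. No paired analysis was possible because each group has 1 array. Faint signal limits Oas1c and the control value of Oasl1, and no alternative bears on the spread between cultures.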
